A study of Mus musculus with 4 samples.

Results

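The nuclear-encoded subunits of the respiratory chain and of ATP synthase were compared between mouse C2C12 myoblasts transfected with K97E lamin A and myoblasts transfected with wild-type (WT) lamin A. The genes were taken by name: every gene outside the mitochondrial chromosome with a symbol of the form Nduf (a, b, c, s or v and a number), Sdha to Sdhd, Uqcr, Cox4 to Cox8 or Atp5, together with Cycs and Cyc1. This gave 86 of the 55416 genes in the files, carried by 85 symbols because Atp5o has a pair of gene IDs. The names place 36 genes in complex I, 4 in complex II, 9 in complex III, 18 in complex IV and 18 in complex V, and Cycs stands alone. Ndufa4 is named as a complex I gene but its protein is found in complex IV, and it was counted there. The name rule misses some subunit genes with other symbols, such as Ndufab1 and Cox7a2l. Counts and sums by complex leave these out.

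C2C12 is a mouse myoblast line that divides as a muscle precursor and can be differentiated into myotubes. Lamin A builds filaments under the inner nuclear membrane, and K97E is described in the labels as a variant of dilated cardiomyopathy. There were 2 K97E libraries and 2 WT libraries, each called a biological replicate, from cells harvested 24 h after 3 µg of DNA was delivered with a lipid reagent. Cultures of both groups had therefore received lamin A DNA with the reagent, and cells without it were not analysed here. The transfection was transient, and neither the share of cells that took up DNA nor the species of the transfected lamin A is given in the sources used here. The titles of the K97E samples spell the line C1C12, while their other labels give C2C12. Nothing in the labels ties the replicates to separate cultures, so the p-values rest on a spread between libraries that may be only technical.

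Oxidative phosphorylation takes electrons from NADH at complex I and from succinate at complex II, passes them through coenzyme Q to complex III and through cytochrome c to complex IV, where oxygen is reduced. The proton gradient built by complexes I, III and IV drives ATP synthesis at complex V. Complexes I, III, IV and V each combine subunits made in the mitochondrion with a larger number of subunits encoded in the nucleus, whereas complex II and cytochrome c are wholly nuclear-encoded. Skeletal and heart muscle use dedicated forms of several complex IV subunits, which come on as myoblasts mature.

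The coverage in the files corresponded to between 89600000 and 115600000 reads of 100 bases per library. Des, the muscle intermediate filament gene, stood at 384 to 467 TPM (transcripts per 1000000) over the 4 libraries, and the myoblast factor Myf5 at 41.5 to 47.8 TPM. Of 8 genes listed as markers of differentiated muscle, 6 had means under 0.5 TPM, with Myog, Ckm and Acta1 at most at 0.167 TPM. The other 2 were Mylpf at 1.24 to 2.89 TPM and Atp2a1 at 0.664 to 1.37 TPM, both highest in WT replicate 2. These low levels go with the label of myoblasts, although Msc, also on the myoblast list, was near 0. WT replicate 1 stood apart. Over 16304 tested genes it was the highest or the lowest library for 66.2%, and transcripts of the mitochondrial chromosome took 7.37% of its TPM, against 5.29% to 5.55% in the other 3 libraries. The 13 protein genes of the mitochondrial genome had their highest value in WT replicate 1, and their median log2 fold change was -0.26, with 12 of 13 negative and 0 called. RNA was taken from whole cultures, in which fewer cells of a type and less RNA per cell cannot be told apart.

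Promoters of 6 genes are shown here because the results return to them. Cycs, Ndufa4, Sdhd and Ndufs6 were among the genes with the smallest p-values, Atp5j starts near the gene of a regulator of respiratory genes, and Cox8b is the muscle form listed at 0. The sequences are RefSeq promoter windows of the build GRCm38.p6, from 250 bases before to 50 bases after the gene start, so their coordinates are not those of the deposited files, which use GRCm39. All 6 are on the minus strand and are written 5′ to 3′ in the direction of transcription: Cycs at chr6:50566520-50566819, Ndufa4 at chr6:11907401-11907700, Sdhd at chr9:50603800-50604099, Ndufs6 at chr13:73328433-73328732, Atp5j at chr16:84834927-84835226 and Cox8b at chr7:140900397-140900696. Capitals mark the letters of motifs searched for on both strands: CGCATGCG in Cycs and Atp5j, GCGCANGCG or its reverse complement in Cycs, Sdhd and Ndufs6, AAGATGGCG in Ndufs6 and Atp5j, and TATAAA in Cox8b. In Cycs the first and second of these motifs overlap.
Cycs: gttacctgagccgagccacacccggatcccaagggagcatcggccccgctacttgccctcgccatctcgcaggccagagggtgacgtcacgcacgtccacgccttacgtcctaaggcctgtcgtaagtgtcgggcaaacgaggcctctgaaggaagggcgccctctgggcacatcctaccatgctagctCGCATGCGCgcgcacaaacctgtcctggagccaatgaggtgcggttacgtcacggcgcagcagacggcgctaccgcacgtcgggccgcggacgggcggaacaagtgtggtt
Ndufa4: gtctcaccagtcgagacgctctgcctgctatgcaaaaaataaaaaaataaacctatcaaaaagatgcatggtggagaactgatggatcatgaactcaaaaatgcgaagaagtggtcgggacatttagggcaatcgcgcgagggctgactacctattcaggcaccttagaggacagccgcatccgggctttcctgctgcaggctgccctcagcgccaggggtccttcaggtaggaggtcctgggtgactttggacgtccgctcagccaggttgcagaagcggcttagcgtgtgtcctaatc
Sdhd: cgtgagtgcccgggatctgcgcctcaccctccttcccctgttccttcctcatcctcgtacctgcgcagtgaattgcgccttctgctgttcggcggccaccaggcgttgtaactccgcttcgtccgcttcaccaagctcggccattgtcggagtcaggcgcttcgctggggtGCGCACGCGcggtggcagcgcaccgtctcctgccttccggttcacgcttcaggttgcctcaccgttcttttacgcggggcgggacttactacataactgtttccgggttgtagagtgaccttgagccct
Ndufs6: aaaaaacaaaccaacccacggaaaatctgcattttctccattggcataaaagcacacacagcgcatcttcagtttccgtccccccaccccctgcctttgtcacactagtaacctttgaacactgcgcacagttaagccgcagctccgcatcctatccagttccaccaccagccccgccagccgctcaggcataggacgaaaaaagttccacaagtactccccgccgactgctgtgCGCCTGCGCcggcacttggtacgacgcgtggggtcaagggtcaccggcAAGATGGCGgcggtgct
Atp5j: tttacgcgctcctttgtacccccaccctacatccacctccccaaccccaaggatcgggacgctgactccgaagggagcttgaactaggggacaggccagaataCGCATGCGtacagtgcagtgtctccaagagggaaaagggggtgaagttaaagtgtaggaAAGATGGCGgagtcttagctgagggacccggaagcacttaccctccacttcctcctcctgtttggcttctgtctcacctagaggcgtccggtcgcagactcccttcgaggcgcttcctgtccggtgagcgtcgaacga
Cox8b: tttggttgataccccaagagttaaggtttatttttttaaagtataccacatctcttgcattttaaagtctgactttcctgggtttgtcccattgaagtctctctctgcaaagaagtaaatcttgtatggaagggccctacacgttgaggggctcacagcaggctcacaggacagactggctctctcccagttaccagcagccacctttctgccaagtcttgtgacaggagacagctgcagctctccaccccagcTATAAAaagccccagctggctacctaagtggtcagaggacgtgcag

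RefSeq windows were found for 69 of the 85 symbols. GCGCANGCG, a form of the site of the respiratory regulator NRF1, occurred in 21 of 69 windows (30.4%) and in 1532 of the 10200 windows of tested genes (15.0%). By complex it was in 8 of 32 windows of complex I, 2 of 3 of complex II, 2 of 5 of complex III, 1 of 13 of complex IV and 7 of 15 of complex V. CGCATGCG, which reads the same on both strands and can overlap the longer motif, was in 10 windows (14.5%) and in 4.26% of all. AAGATGGCG, a form of the YY1 site, was in 7 (10.1%) and in 3.57% of all, and CCGGAAGT, of the ETS type bound by GABP, in 5 (7.25%) and in 9.11% of all. TATAAA was in 8 (11.6%) and in 9.11% of all. A match describes letters in the window and is not evidence of binding. Ndufa4 held none of these motifs in its window, which says only that these letters are not there.

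Of the 82 members with enough signal to test (a mean of at least 0.5 TPM), 79 were at 10 TPM or more, and 78 had at least 1000 estimated reads in every library. The 4 members under 0.5 TPM were Cox4i2, Cox6b2, Cox8b and the second Atp5o ID, and the last 2 of these were at 0 in all libraries. TPM is per transcript length, so levels can be set between genes. The median level of the tested genes, as means over the 4 libraries, was higher with each complex in turn. It was 94.2 TPM for complex I, 121 TPM for complex II, 145 TPM for complex III, 179 TPM for complex IV and 197 TPM for complex V. Atp5b, the catalytic beta subunit of ATP synthase, was the most abundant member, at 983 and 1002 TPM in the K97E libraries, against 831 and 938 TPM in the WT libraries. Cox8a, a small structural subunit of complex IV, followed at 562 and 532 TPM in the K97E libraries, against 461 and 524 TPM in the WT libraries. The lowest tested members of complexes I, II, III and V were Ndufb2, Sdhc, Uqcrfs1 and Atp5g1. Ndufb2, an accessory membrane subunit, stood at 21.4 and 20.8 TPM in the K97E libraries, against 18.9 and 19.0 TPM in the WT libraries.

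**Figure D1:**
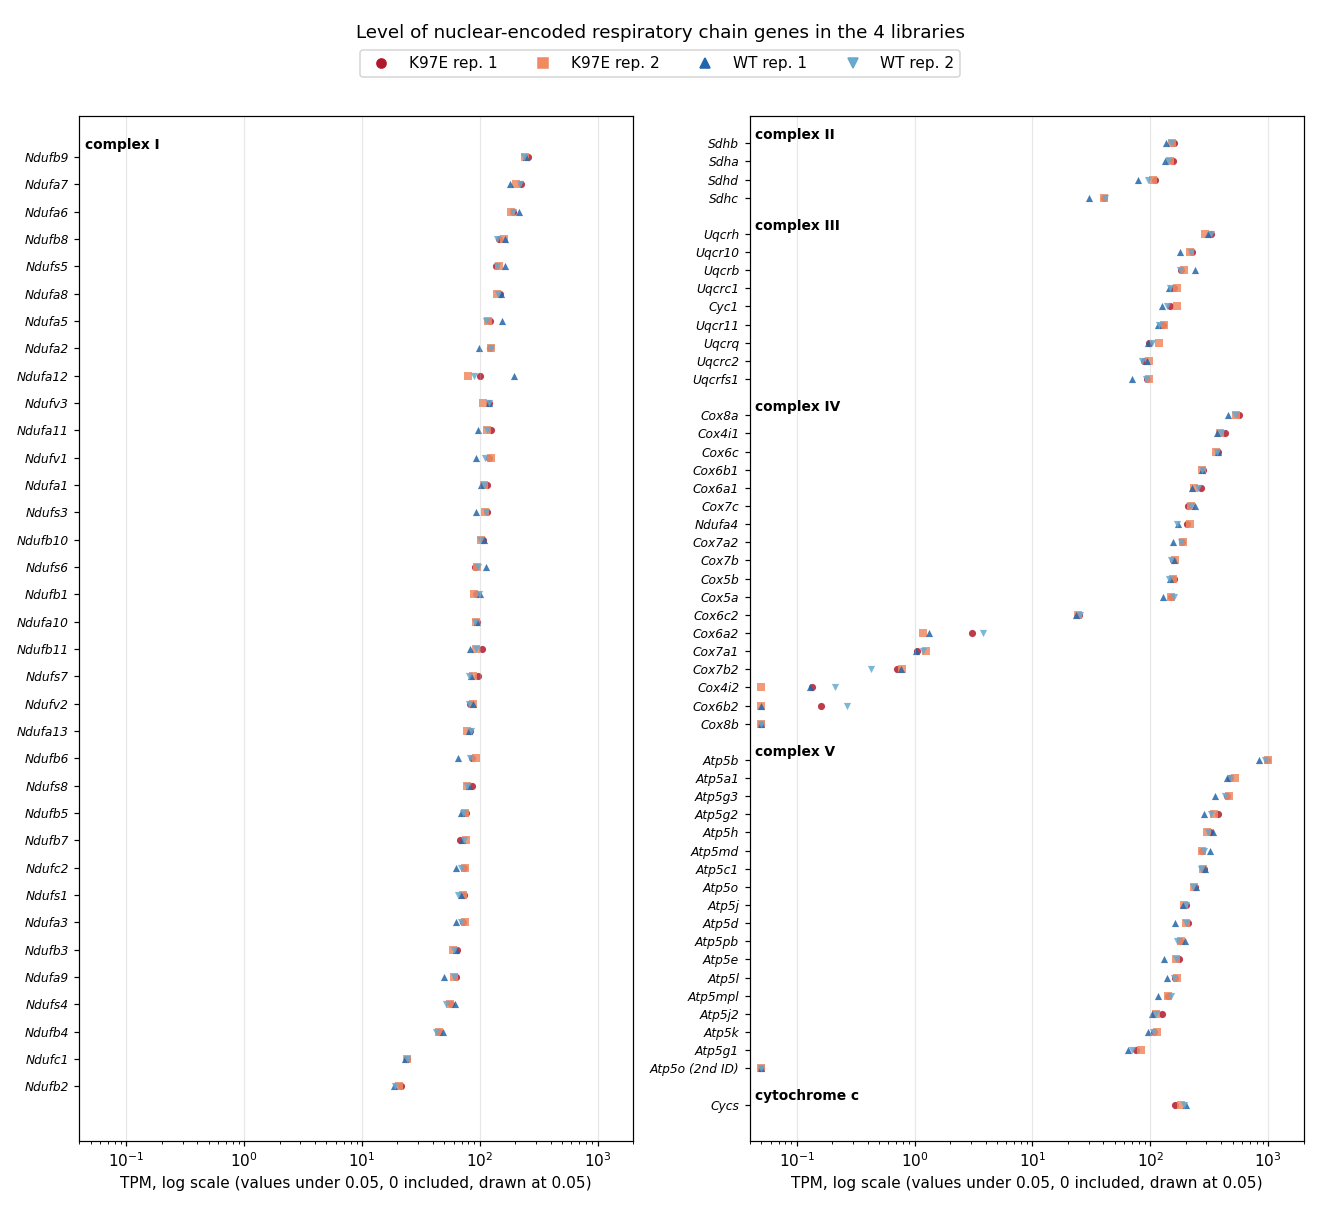
Level of the genes in TPM (log axis) in the 2 K97E and the 2 WT libraries, by complex and ordered by mean within a complex. The 4 points of a gene nearly coincide for most genes, WT replicate 1 stands to the right for Ndufa12 (196 TPM), and the complex IV genes at the bottom of their group are alternative forms of subunits near 0.

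No member passed the test for a difference between K97E and WT lamin A. By limma with Benjamini-Hochberg adjustment over all tested genes, 0 of 82 members were called at 0.05, against 1 of 16304 genes overall (0.00613%), and the smallest adjusted p of a member was 0.965. At an unadjusted p under 0.05 there was 1 member higher in K97E, Ndufa4, and 0 lower, where 3.68% of all genes passed (1.14% higher and 2.54% lower). Limma's voom on estimated reads called 0 members and had 0 under that unadjusted level. Log2 fold changes, K97E minus WT, were positive for 46 members and negative for 36 (56.1% positive, against 49.5% of all tested genes). With TPM left unscaled 61 were positive (74.4%, against 63.3% of all genes), and without WT replicate 1 there were 39 (47.6%, against 48.8%). With scaling and all 4 libraries, the median over members was 0.04, beside -0.0017 for all tested genes, and the values ran from -0.61 for Ndufa12 to 0.26 for Ndufa4. The groups did not overlap in 25 members (30.5%, against 33.1% of all genes), 13 of them higher in K97E (background 16.3%) and 12 lower (background 16.8%). These shares were near the background in both directions.

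The limma intervals were of similar width for most members. They rest on the same spread between libraries as the p-values, which may be only technical. They therefore need not bound a change between separate cultures. The 95% interval of a log2 fold change reached a median of 0.26 to either side, and in 80 of 82 members the whole interval lay within 1 of 0, which is a 2-fold change in either direction. It lay within 0.5 of 0 in 68 members. The exceptions to the wider bound were Ndufa12 (-1.51 to 0.29) and the weakly expressed Cox6a2 (-1.53 to 1.03). In 47 members the estimate itself was under 0.1 in size, and in 4 it was over 0.25.

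**Figure D2:**
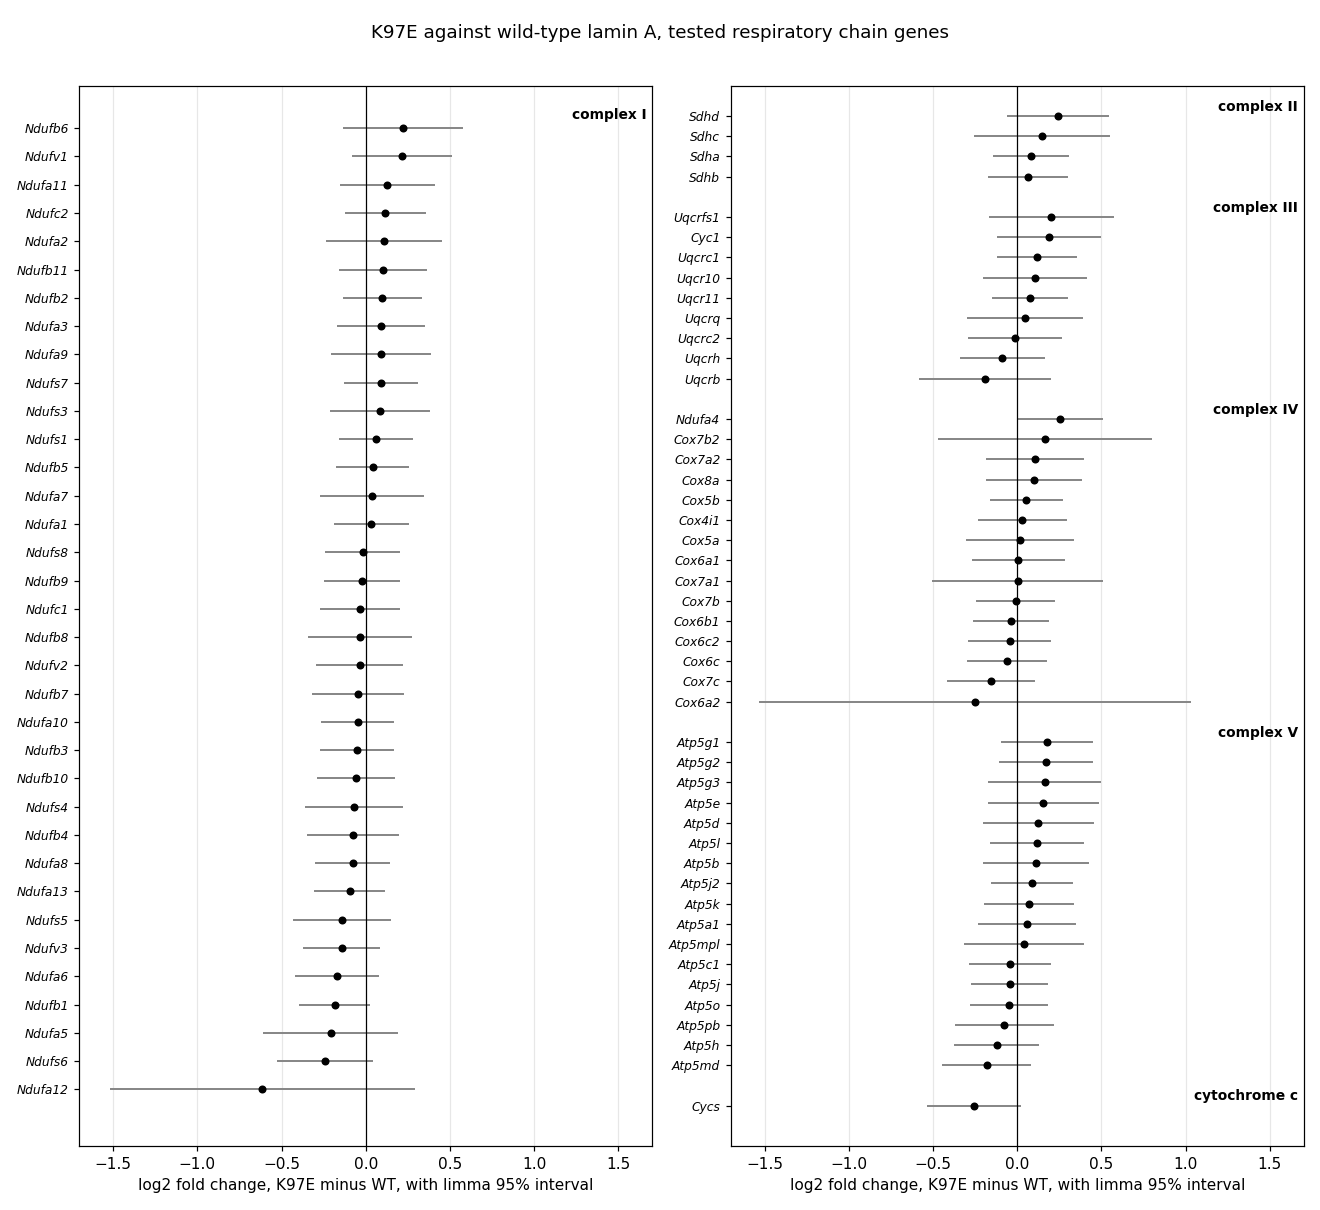
Log2 fold change of K97E minus WT (points) with its limma 95% interval (lines) for the tested genes shown, by complex and ordered by value. The interval of Ndufa4 alone excludes 0, from 0.01 to 0.50, before adjustment for the number of genes tested.

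WT replicate 1 lay at the edge of the values in most members. It was the highest or lowest of the 4 libraries in 65 members (79.3%, against 66.2% of all tested genes) and the lowest in 47.6% (against 33.2%). The WT libraries differed from each other by a median of 0.14 on the log2 scale in these genes, and the K97E libraries by 0.08. Over all tested genes these medians were 0.17 and 0.12. In 62 of 82 members (75.6%, against 67.2% of all tested genes) the WT pair lay farther apart than the group means. Across the 82 members the log2 values of K97E replicate 1 and WT replicate 2 had a Pearson correlation of 0.9978, the highest of the library pairs, and the WT pair had 0.985, the lowest, with scaling and gene length shared by all of them. The shift of WT replicate 1 was not the same in every complex. Its median deviation from a gene's mean over the 4 libraries was 0.02 in complex I, -0.18 in complex II, -0.08 in complex III, -0.08 in complex IV and -0.11 in complex V. The same library held the higher share of mitochondrial chromosome transcripts, and the part of either in the fold changes was not tested.

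**Figure D3:**
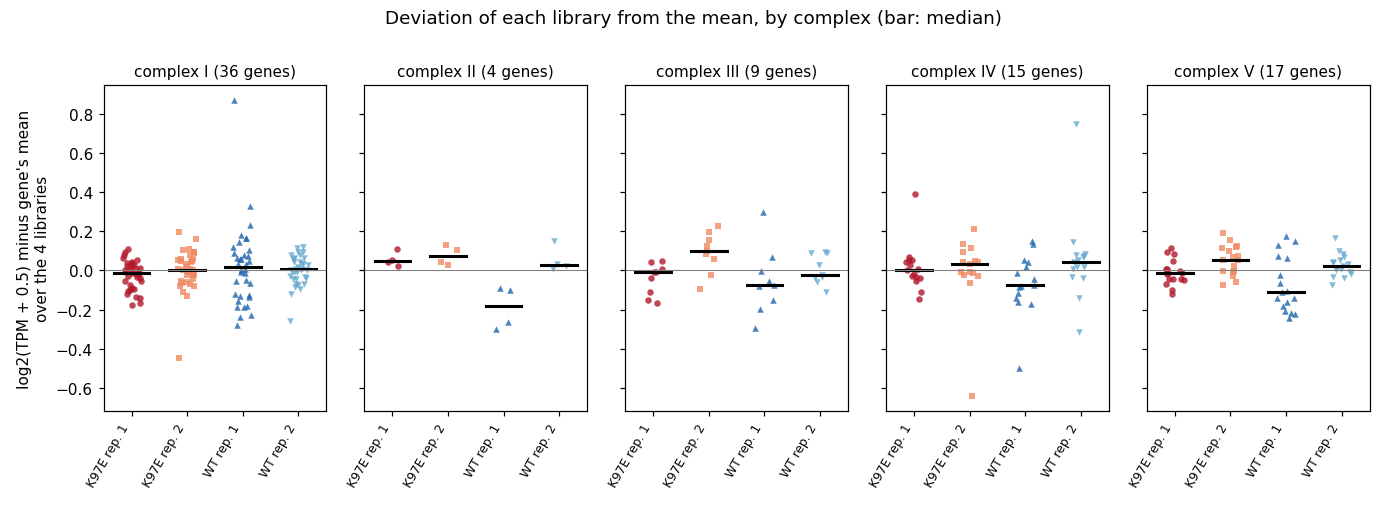
Deviation of each library from a gene's mean over the 4 libraries, in log2(TPM + 0.5) after scaling, for the tested genes of complexes I to V, with the K97E libraries to the left and the median of each library as a bar. WT replicate 1 has the widest scatter in complex I and lies below the other libraries in all 4 genes of complex II, where its median is -0.18.

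Complex I, the NADH dehydrogenase, showed no common direction. Its 36 genes had 16 positive and 20 negative log2 fold changes with a median of -0.03, and the groups were apart in 5 genes higher in K97E and 6 lower (30.6% of its genes, against 33.1% of all tested genes). With TPM left unscaled 24 were positive and the median was 0.03, so its sign depends on the scaling. Summed over its genes, complex I stood at 3748 and 3635 TPM in the K97E libraries, against 3691 and 3594 TPM in the WT libraries, which overlap. After scaling the sums were 3592 and 3644 in the K97E libraries, against 3767 and 3668 in the WT libraries. Both K97E sums were then below both WT sums, with a log2 ratio of -0.04, or 0.02 unscaled. All these sums include Ndufa12, at 196 TPM in WT replicate 1 and 79.5 to 101 TPM in the other libraries. Sums without Ndufa12 were not computed. The 7 core subunits of electron transfer had 5 positive and 2 negative fold changes with a median of 0.07, and the 29 accessory subunits had 11 positive and 18 negative with a median of -0.04. Without WT replicate 1 the median of the core subunits was 0.02. With TPM left unscaled all 7 core and 17 of the 29 accessory subunits were positive.

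Among the core subunits Ndufv1, which binds NADH and the flavin (GRCm39 chromosome 19, 4057384 to 4062806, minus strand), stood at 120 and 124 TPM in the K97E libraries, against 92.3 and 110 TPM in the WT libraries. Both K97E libraries were above both WT libraries, with a log2 fold change of 0.22 (SE 0.12, 95% interval -0.07 to 0.51). Without WT replicate 1 the fold change was 0.09. Ndufs7, an iron-sulfur subunit next to the quinone site, stood at 96.2 and 87.5 TPM in the K97E libraries, against 84.5 and 80.9 TPM in the WT libraries. Ndufs1, the largest iron-sulfur subunit, stood at 73.3 and 72.2 TPM in the K97E libraries, against 68.7 and 65.2 TPM in the WT libraries. The groups were apart in both of these genes, with log2 fold changes of 0.09 and 0.06. Ndufs8 and Ndufv2 had fold changes of -0.02 and -0.04, which became 0.04 for Ndufs8 and 0.02 for Ndufv2 with unscaled TPM, and their groups overlapped.

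Among the 29 accessory subunits the groups were apart in 6 with lower and 2 with higher K97E values (27.6%, against 33.1% of all tested genes). The 3 with the lowest fold changes among the 6 were Ndufs6, Ndufb1 and Ndufa6. Ndufs6, a zinc-binding subunit, stood at 91.3 and 94.2 TPM in the K97E libraries, against 114 and 97.2 TPM in the WT libraries (log2 fold change -0.24, SE 0.11). Ndufb1, a small membrane-arm subunit, stood at 92.1 and 89.8 TPM in the K97E libraries, against 100.05 and 98.3 TPM in the WT libraries (log2 fold change -0.18, SE 0.08). Ndufa6 stood at 191 and 185 TPM in the K97E libraries, against 215 and 192 TPM in the WT libraries (log2 fold change -0.17, SE 0.10). In Ndufs6 and Ndufa6 WT replicate 1 was well above the other 3 libraries, whereas in Ndufb1 both WT libraries were close together.

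The lowest fold change of all members was that of Ndufa12, an accessory subunit of the matrix arm (GRCm39 chromosome 10, 94034582 to 94057305, plus strand), and it came from 1 library. Ndufa12 stood at 101 and 79.5 TPM in the K97E libraries, against 196 and 89.2 TPM in the WT libraries. The groups overlapped, since WT replicate 2 lay between the K97E libraries, and the log2 fold change was -0.61 (SE 0.36), or -0.05 without WT replicate 1. Coverage of its exons showed where that library differed. Exon 1 had 543 and 541 covered bases per 1000000 reads in the K97E libraries, against 752 and 532 in the WT libraries. Exon 2 had 825 and 801 in the K97E libraries, against 1279 and 779 in the WT libraries. Exon 3 had 440 and 418 in the K97E libraries, against 1300 and 404 in the WT libraries, and exon 4 had 843 and 763 against 2086 and 663. WT replicate 1 was thus above the other libraries in each of these exons and by more in exons 3 and 4 than in exons 1 and 2. Ndufa12-ps, a copy in a single exon on chromosome 5 (130217236 to 130217637, plus strand), stood at 204 and 206 TPM in the K97E libraries, against 173 and 191 TPM in the WT libraries, and was lowest in WT replicate 1. StringTie divides reads between overlapping models, and aligners can place a read at either copy where sequences are alike. The level of Ndufa12 is therefore uncertain. The sequences of the copies were not compared here, and whether reads moved between the copies was not tested.

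Complex II, the succinate dehydrogenase that also serves the citric acid cycle, was the complex with every fold change on 1 side. All 4 genes had positive log2 fold changes with a median of 0.11, and WT replicate 1 was the lowest library in all 4. Summed, they stood at 464 and 446 TPM in the K97E libraries, against 378 and 429 TPM in the WT libraries. Scaled, the sums were 444 and 447 in the K97E libraries, against 386 and 438 in the WT libraries, with a log2 ratio of 0.11. The median fold change was 0.01 without WT replicate 1 and 0.25 without WT replicate 2. Sdhd, a membrane anchor with a part in the quinone site (GRCm39 chromosome 9, 50507657 to 50515112, minus strand), stood at 109 and 106 TPM in the K97E libraries, against 79.0 and 96.4 TPM in the WT libraries. The groups did not overlap, and the log2 fold change was 0.24 (SE 0.12, 95% interval -0.05 to 0.54), or 0.10 without WT replicate 1. Sdhc, the other anchor, stood at 40.9 and 40.9 TPM in the K97E libraries, against 30.3 and 41.4 TPM in the WT libraries. Its fold change of 0.15 turned to -0.08 without WT replicate 1. Sdha, the flavoprotein that oxidises succinate, stood at 156 and 146 TPM in the K97E libraries, against 133 and 142 TPM in the WT libraries. Sdhb, its iron-sulfur partner, stood at 158 and 153 TPM in the K97E libraries, against 136 and 149 TPM in the WT libraries. In scaled values the groups were apart in Sdha and overlapped in Sdhb, although the TPM printed for Sdhb do not overlap. Their fold changes were 0.08 and 0.06, and that of Sdhb was -0.0045 without WT replicate 1.

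Complex III, the cytochrome bc1 complex, had 6 positive and 3 negative log2 fold changes with a median of 0.08, or 0.01 without WT replicate 1. K97E replicate 2 was the highest library in 6 genes, and the highest or lowest in 77.8% (against 44.2% of all tested genes). The median deviation from a gene's mean was 0.10 for K97E replicate 2 and -0.01 for K97E replicate 1. Summed over its genes, complex III stood at 1458 and 1488 TPM in the K97E libraries, against 1376 and 1415 TPM in the WT libraries. The scaled sums overlapped, at 1398 and 1492 in the K97E libraries, against 1404 and 1444 in the WT libraries, with a log2 ratio of 0.02, or 0.08 unscaled. Cyc1, the cytochrome c1 haem subunit, stood at 146 and 168 TPM in the K97E libraries, against 127 and 138 TPM in the WT libraries. Its scaled values overlapped, with a log2 fold change of 0.19 (SE 0.12), which was 0.05 without K97E replicate 2, the highest library, and 0.32 without K97E replicate 1. Uqcrfs1, the Rieske iron-sulfur protein, stood at 94.6 and 97.97 TPM in the K97E libraries, against 70.2 and 92.1 TPM in the WT libraries. Its log2 fold change was 0.20 (SE 0.15), and 0.0036 without WT replicate 1, the library that was lowest for this gene, and its scaled values overlapped too. Of the core proteins, Uqcrc1 stood at 161 and 168 TPM in the K97E libraries, against 143 and 148 TPM in the WT libraries, with groups apart (log2 fold change 0.12, SE 0.09). Uqcrc2 had a fold change of -0.01, or 0.05 with unscaled TPM, and Uqcrh, the acidic hinge protein, -0.09.

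Cycs, cytochrome c itself, carries electrons from complex III to complex IV and is also released in apoptosis (GRCm39 chromosome 6, 50539543 to 50543518, minus strand). It stood at 162 and 181 TPM in the K97E libraries, against 201 and 194 TPM in the WT libraries. Both K97E libraries were below both WT libraries, and the log2 fold change was -0.26 (SE 0.11, 95% interval -0.53 to 0.02). The value moved between -0.15 and -0.37 as each library was left out, with the lowest adjusted p over all settings tried at 0.381. The spread here lay in the K97E pair, and the WT libraries were close.

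Complex IV, cytochrome c oxidase, had 9 positive and 6 negative log2 fold changes among its 15 tested genes with a median of 0.01, or 5 positive and a median of -0.04 without WT replicate 1. Summed over its 18 genes it stood at 3019 and 2918 TPM in the K97E libraries, against 2733 and 2879 TPM in the WT libraries. The scaled sums overlapped, at 2893 and 2926 in the K97E libraries, against 2789 and 2938 in the WT libraries, with a log2 ratio of 0.02, or 0.08 unscaled. Besides Ndufa4, Cox7c was among its genes with the smallest p. Cox7c, a small structural subunit, stood at 209 and 220 TPM in the K97E libraries, against 239 and 220 TPM in the WT libraries. Its scaled values did not overlap, although TPM of K97E replicate 2 and WT replicate 2 were nearly equal, and the log2 fold change was -0.16 (SE 0.10).

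Where complex IV has a general and a muscle form of a subunit, the general form prevailed in all 4 libraries. Cox4i1 made up at least 99.9% of the TPM of the Cox4 pair in each library, at 429 and 388 TPM in the K97E libraries, against 367 and 402 TPM in the WT libraries. Cox6a1 stood at 270 and 235 TPM in the K97E libraries, against 228 and 255 TPM in the WT libraries, while Cox6a2, the heart and muscle form, stood at 3.07 and 1.18 TPM in the K97E libraries, against 1.33 and 3.84 TPM in the WT libraries. Cox6a2 varied more within each group than between the group means. Cox7a2 stood at 188 and 191 TPM in the K97E libraries, against 155 and 184 TPM in the WT libraries, while its heart and muscle counterpart Cox7a1 stood at 1.05 and 1.25 TPM in the K97E libraries, against 1.02 and 1.19 TPM in the WT libraries. Cox8b, the heart and muscle form beside Cox8a, was listed at 0 in all 4 libraries. The lung form Cox4i2 was at most at 0.211 TPM and the testis form Cox6b2 at most at 0.268 TPM. Cox7b2, a testis form, was at 0.715 and 0.778 TPM in the K97E libraries, against 0.774 and 0.428 TPM in the WT libraries, resting on 12 to 21 estimated reads per library. Cox6c2, chosen after its values were seen, made up 5.84% to 6.55% of the Cox6c pair. Its sequence was not compared with that of Cox6c, and whether reads of Cox6c were credited to it was not tested, so its level is uncertain.

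**Figure D4:**
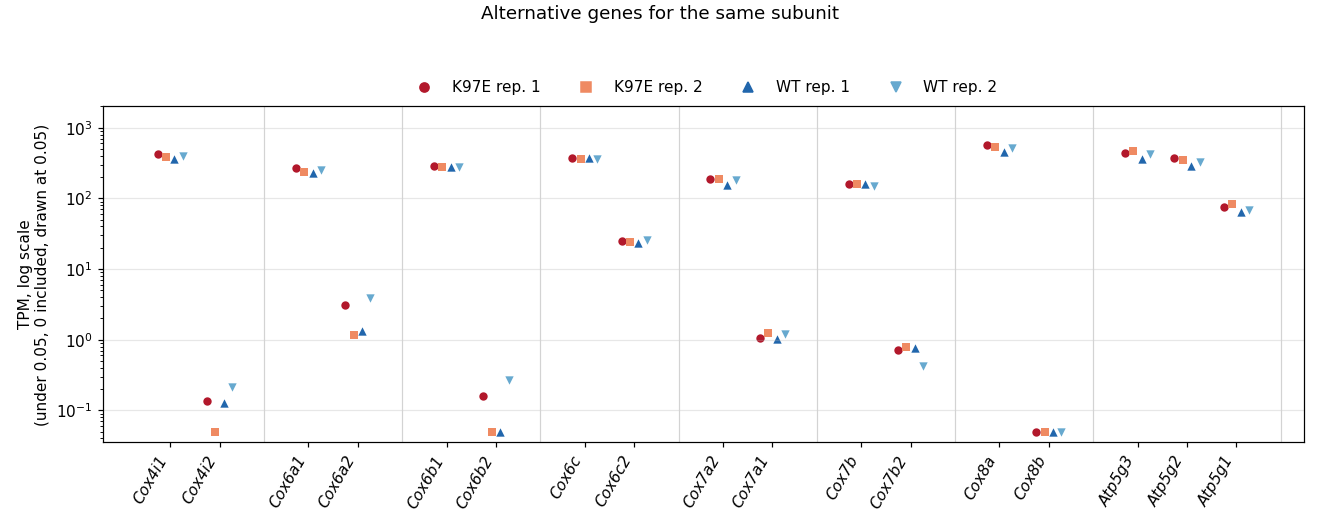
TPM (log axis) of genes that encode alternative forms of the same subunit, with the 2 K97E libraries left of the 2 WT libraries for each gene. Cox4i1, Cox6a1, Cox7a2 and Cox8a lie at 155 TPM or more in every library, and their partners Cox4i2, Cox6a2, Cox7a1 and Cox8b between 0 and 3.84 TPM.

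Ndufa4 had the smallest unadjusted p of all members, and its value depended on how transcript length was treated. Ndufa4 (GRCm39 chromosome 6, 11900291 to 11907496, minus strand) stood at 204 and 219 TPM in the K97E libraries, against 172 and 168 TPM in the WT libraries. The groups did not overlap, and the log2 fold change was 0.26 (SE 0.10, 95% interval 0.01 to 0.50, limma adjusted p = 0.965). In estimated reads per 1000000 the gene stood at 57.0 and 61.4 in the K97E libraries, against 52.8 and 55.6 in the WT libraries, and the log2 fold change by voom was 0.11. The difference between the measures lay in the credited transcripts. The transcript ENSMUST00000204978 of 610 bases stood at 172 and 203 TPM in the K97E libraries, against 139 and 136 TPM in the WT libraries. The transcript ENSMUST00000203801 of 1232 bases stood at 6.54 and 2.03 TPM in the K97E libraries, against 15.2 and 27.7 TPM in the WT libraries. The longer form was thus lower in both K97E libraries, and reads credited to it give fewer TPM. StringTie assigns shared reads to transcripts by a model, and the transcript split was not tested.

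Such a gap between TPM and reads was uncommon among the members. It was over 0.1 on the log2 scale in Ndufa4, Ndufa12 and Cox7b2, which is 3.66% of the 82 members, against 13.04% of all tested genes. Of the members 79 were at 10 TPM or more, whereas tested genes reach down to a mean of 0.5 TPM. Shares at like levels were not computed. Of the 71 members with more than 1 transcript, the same transcript led in all libraries in 66. It switched in 5, named here after their values were seen: Atp5c1, Cox4i1, Ndufa12, Ndufb10 and Ndufs1.

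**Figure D5:**
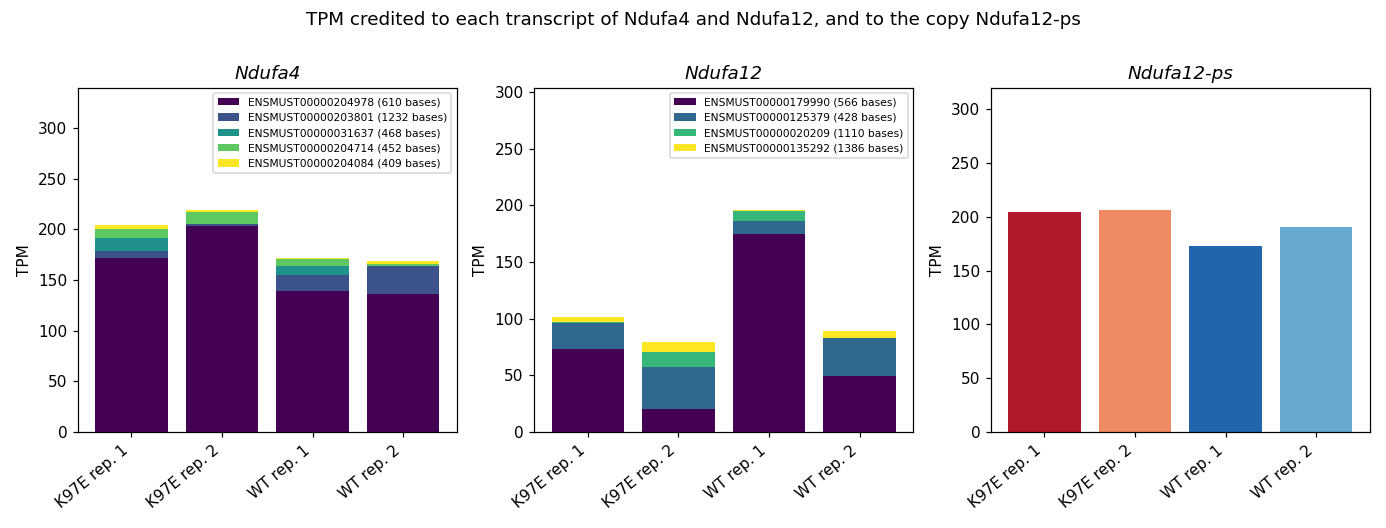
TPM credited to each annotated transcript of Ndufa4 and Ndufa12 and to the copy Ndufa12-ps in the 2 K97E libraries (left) and the 2 WT libraries (right), as stacked bars from 0. The 1232-base transcript of Ndufa4 is thicker in the WT libraries (15.2 and 27.7 TPM), and the 566-base transcript of Ndufa12 is far above the others in WT replicate 1 (174 TPM).

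Complex V, the ATP synthase, had 11 positive and 6 negative log2 fold changes with a median of 0.07, or 0.0073 and 9 positive without WT replicate 1. Summed over its genes it stood at 4782 and 4803 TPM in the K97E libraries, against 4319 and 4603 TPM in the WT libraries. The scaled sums overlapped, at 4584 and 4815 in the K97E libraries, against 4408 and 4697 in the WT libraries, with a log2 ratio of 0.05, or 0.10 unscaled. The medians of the parts of the enzyme lay on both sides of 0. In the F1 head, the catalytic part, 4 of 5 genes were positive with a median of 0.11, and all 3 genes of the c ring were positive with a median of 0.17. Without WT replicate 1 the F1 head had 3 of 5 positive with a median of 0.0073, and the c ring a median of 0.07. All 4 tested genes of the peripheral stalk, which holds the head in place, were negative with a median of -0.06, although 2 of them were positive with unscaled TPM and 1 without WT replicate 1. Of the 5 small membrane subunits 4 were positive with a median of 0.07, and 2 without WT replicate 1. None of these genes was called, and WT replicate 1 was the lowest library in all 3 c-ring genes and the highest in 3 of the 4 stalk genes.

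In the F1 head, Atp5b had a log2 fold change of 0.11 (SE 0.12) and Atp5a1, the alpha subunit, of 0.06 (SE 0.11). Atp5c1, the central gamma subunit, stood at 284 and 280 TPM in the K97E libraries, against 289 and 269 TPM in the WT libraries. Its fold change was -0.04, and became 0.02 both for unscaled TPM and after quantile normalization, so its sign depends on the scaling. The c ring is the rotor that protons turn, and Atp5g1, Atp5g2 and Atp5g3 encode the same mature protein with different import sequences. Atp5g1 stood at 75.2 and 83.0 TPM in the K97E libraries, against 64.6 and 69.4 TPM in the WT libraries. Atp5g2 stood at 377 and 346 TPM in the K97E libraries, against 288 and 331 TPM in the WT libraries. The groups were apart in both, with log2 fold changes of 0.18 and 0.17 (SE 0.11 each). Atp5g3 stood at 445 and 470 TPM in the K97E libraries, against 357 and 431 TPM in the WT libraries, with a fold change of 0.16 and scaled values that overlapped. The division of c-ring transcripts hardly differed between groups: Atp5g3 gave 49.6% and 52.3% in the K97E libraries, against 50.3% and 51.9% in the WT libraries. Of the small membrane subunits, Atp5md stood at 277 and 276 TPM in the K97E libraries, against 320 and 284 TPM in the WT libraries (log2 fold change -0.18, SE 0.10).

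Genes that build or regulate the complexes were counted from lists chosen with earlier results of these data known. None was called in any list. Of 18 tested assembly factors of complex I, 12 were positive with a median of 0.03, and of 23 of complex IV, 14 were positive with a median of 0.04. The smallest p-values among the complex IV factors belonged to Cox17, the copper chaperone, and Cox11, which delivers copper to the catalytic core. Cox17 stood at 71.9 and 70.5 TPM in the K97E libraries, against 81.9 and 79.7 TPM in the WT libraries (log2 fold change -0.24, SE 0.08). Cox11 stood at 9.93 and 10.7 TPM in the K97E libraries, against 7.60 and 8.14 TPM in the WT libraries (log2 fold change 0.31, SE 0.12). All 5 assembly factors of complex V were positive, with a median of 0.16 and groups apart in all 5, where 16.3% of all tested genes were apart with K97E higher, and WT replicate 1 was the lowest library in 4 of the 5. Among the 14 tested regulators of mitochondrial biogenesis 6 were positive and 8 negative. Ppargc1a, the coactivator of mitochondrial biogenesis, stood at 1.03 and 0.869 TPM in the K97E libraries, against 0.971 and 0.914 TPM in the WT libraries. Nrf1 stood at 24.8 and 23.4 TPM in the K97E libraries, against 24.1 and 23.0 TPM in the WT libraries. Of the 11 genes of coenzyme Q synthesis 9 were positive, and of the 14 of the citric acid cycle 9. For the mitochondrial ribosome the count was 42 of 78. Over all tested genes 49.5% were positive. K97E replicate 2 was the highest library in 7 of the coenzyme Q genes and in 7 of the citric acid cycle genes, against 3549 of all 16304.

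The members are spread over 19 chromosomes, with at most 8 on any of them. A feature that the choice by name did not use is their neighbourhood. In 27 of 82 tested members (32.9%) the start lay within 1000 bases of the start of a tested gene on the opposite strand, against 17.4% of all tested genes. Ndufs6 was 29 bases from Mrpl36, a mitochondrial ribosomal protein gene, and Sdhd was 98 bases from Timm8b, of mitochondrial protein import. Atp5j, named with these neighbours after the values were seen, was 700 bases from Gabpa, which encodes the DNA-binding subunit of GABP. The share of same-sign pairs over all tested genes was not computed. Over the 27 pairs the log2 fold changes of member and partner had the same sign in 10. In the pairs named they were opposite, with log2 fold changes of -0.24 for Ndufs6 beside 0.08 for Mrpl36, 0.24 for Sdhd beside -0.13 for Timm8b, and -0.05 for Atp5j beside 0.01 for Gabpa. None of the 6 was called. Exons of 30 members (36.6%, against 31.1% of all tested genes) overlap those of another gene. Without the strand in the counting, reads there can be credited to either gene. Of the pairs named, this applies to Ndufs6 with Mrpl36 and to Atp5j with Gabpa.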

How the data were processed

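RNA of C2C12 cells transfected with lamin A, in 2 K97E and 2 WT libraries, was sequenced from a stranded kit as paired reads of 100 bases, per the labels' protocols, and grouped by genotype label. GRCm39, HISAT2, SAMtools, FastQC, DESeq2 and StringTie 2.1.7 are listed in the submitters' processing notes. What DESeq2 was used for is not stated in them, and it was not run here. Per the file headers, StringTie estimated annotated transcripts of Ensembl release 104 only, with no strand option, and the authors deposited coverage, FPKM and TPM for 142434 transcripts per library. No read counts are in these files. Estimated reads were coverage times length divided by 100, so no counting interval was computed.

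A gene's value was its transcripts' TPM added up. These were divided by median-of-ratios factors (1.04 and 1.00 for K97E, 0.98 and 0.98 for WT), and log2 was taken after adding 0.5. The 16304 genes with a mean of at least 0.5 TPM went into limma 3.58.1 under R 4.3.3 (eBayes with trend, 5.54 degrees of freedom in total). Tests were two-sided, and p-values were adjusted by Benjamini-Hochberg over all tested genes at 0.05. Fold changes are on the log2(TPM + 0.5) scale, which understates changes of weakly expressed genes, while printed TPM are the deposited values. The smallest p that exact permutation of 2 against 2 samples can give is 0.333. Whether groups overlap was read from the scaled values. In a simulation of this comparison over 16304 genes, limma called 78 of the 100 genes given a 2-fold change and 99 of the 100 given a 4-fold change. It made 7 false calls. The changed genes were taken only from above a minimum level. Noise was drawn independently for each library, with variances from limma's own fit. No library was made to stand apart as WT replicate 1 does, so the counts hold for that simpler setting.

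The members and all lists were chosen with earlier results of these data known. Genes were named if they were called, had the smallest p-values (10 overall and 3 in each complex), were the 2 most or 2 least abundant of a complex, belonged to the catalytic subunits or the alternative forms, or were Ndufa4. Of other lists, the 2 with the smallest p were eligible, and regulators beyond these were named after their values were seen. A gene taken by this rule is in the counts but is not reported here by itself. The settings varied were the pseudocount, filter and scaling, FPKM as deposited, voom on estimated reads, eBayes without trend, the replicate number as a block, removal of genes with overlapping exons, Ndufa4 counted in complex I, and each library left out, where the lone library of a group is assumed to vary like the other group. Python 3.11.15 and pandas 2.3.3 handled the tables.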

Additional observations from a re-analysis of the deposited data

How the results depend on the processing

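No member was called under any setting tried. The lowest adjusted p of a member was 0.204 (limma, Ndufa12 without WT replicate 2), where 18 of 82 members and 2364 of all 16304 genes had an unadjusted p under 0.05. Over all genes 1 was called, and 0 with no filter or without genes with overlapping exons, 2 with TPM as deposited or without trend, 5 by voom, and 0 to 14 as each library was left out (14 without WT replicate 1). Nothing in the labels pairs samples by replicate number, and same-numbered samples had deviations with a correlation of -0.14. With the replicate number as a block, 0 genes and 0 members were called. The crossed pairing, chosen after seeing the data, called 30 genes and 0 members.

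The median log2 fold change of complex I (-0.029) was 0.029 with TPM as deposited, -0.0011 with quantile normalization, -0.00022 with FPKM, 0.018 by voom and -0.050 without genes with overlapping exons. Its summed ratio (-0.039) was 0.019, -0.013, -0.010, -0.0023 by estimated reads and -0.084 under the same changes. With TPM as deposited the summed ratios of complexes III and IV were 0.078 and 0.081, and quantile normalization gave 0.082 for complex IV. As each library was left out, the medians ran from -0.034 to 0.013 for complex I, 0.012 to 0.25 for II, 0.0082 to 0.12 for III, -0.041 to 0.077 for IV, 0.0070 to 0.15 for V and -0.37 to -0.15 for cytochrome c. In the same order the summed ratios ran from -0.059 to -0.023, 0.023 to 0.21, -0.029 to 0.067, -0.017 to 0.060, -0.0021 to 0.092 and -0.37 to -0.15.

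Of the 43 genes that the naming rule took and the test covered, 20 turned sign in at least 1 setting, in 45 of 673 values. Among those whose fold change is given above, TPM as deposited turned Atp5c1 (0.015), Ndufs8 (0.040), Ndufv2 (0.022) and Uqcrc2 (0.047), quantile normalization Atp5c1 (0.021) and Uqcrc2 (0.0067), FPKM Ndufs8 (0.010) and Uqcrc2 (0.017), and voom Ndufs8 (0.0017). Leaving out a library turned Atp5a1 (-0.043 to 0.16), Atp5c1 (-0.096 to 0.0073), Cox6a2 (-0.88 to 0.37), Ndufs8 (-0.057 to 0.017), Ndufv2 (-0.11 to 0.041), Sdhb (-0.0045 to 0.13), Sdhc (-0.079 to 0.37) and Uqcrc2 (-0.12 to 0.092). The cause of these moves was not tested. Few reads limit Cox7b2 most among the tested members, with 12 to 21 estimated reads per library.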
